A study of Rattus norvegicus with 3 samples.

Results

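The cells described here are Ccn3-high Aldh1a2 cells of the postnatal rat cochlea, which were picked from single-cell libraries by measured values. Ccn3 encodes a secreted matricellular protein of the CCN family, and Aldh1a2 encodes a retinaldehyde dehydrogenase that makes retinoic acid. A cell was a member if Ccn3 took at least 50 of every 10000 of its unique molecular identifiers (UMIs, the counted RNA molecules), if it held at least 1 Aldh1a2 UMI, and if the UMIs of 5 endothelial genes (Cldn5, Cdh5, Flt1, Kdr and Egfl7) summed to at most 2. Members numbered 913 of 12779 kept cells at P1 and 287 of 12581 at P7, or 1200 of 25360 in both libraries. Each library came from the cochleae of untreated Sprague-Dawley rats at postnatal day 1 (P1) or postnatal day 7 (P7), with 40 animals pooled and 1 library per stage. Another library, from P14, was not part of the rule, and 3 of its 5281 kept cells, at a median depth of 1614 UMIs, met the same limits, which is 0.0568% (exact 95% interval 0.0117 to 0.166%). Submitters labelled the cells of all samples as greater epithelial ridge, a part of the medial cochlear epithelium, whereas the methods dissociated the whole basal membrane.

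Because members were chosen on Ccn3, Aldh1a2 and the endothelial genes of the same cells, every level given below is a description and no test was made of it. Intervals are exact 95% intervals (Poisson for levels, Clopper-Pearson for shares) that cover counting error only, since there was 1 library per stage and cells are not replicates. For the same reason a difference between stages and a difference between libraries cannot be told apart. Levels are CPM, the UMIs of a gene scaled to a total of 1000000 over those of a group of cells, and log2 ratios were taken with 10 CPM added to both sides. Genes with a mean of at least 10 CPM over the 2 groups were compared, and a gene was counted as higher or lower at a 2-fold ratio on that scale. Libraries were of like depth, with medians of 6565 and 6878 UMIs per kept cell, and the medians in members were 7821 at P1 and 7989 at P7. P1 and P7 shared 60 barcode sequences, 53 of them kept in both, and none was a member in both libraries. A doublet caller, Scrublet, marked 30 members at P1 (3.29%) and 17 at P7 (5.92%), against 5.1% and 6.67% of all kept cells.

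In the postnatal cochlea, mesenchymal cells line the scala tympani side of the basilar membrane and the spiral ligament, and otic mesenchyme carries transcription factors such as Pou3f4 and Tbx18. In canonical Wnt signalling, a Wnt ligand bound by a Frizzled receptor stabilises β-catenin, which acts with factors such as Lef1 on target genes. Several of these targets, among them Axin2, Nkd1 and Notum, encode inhibitors that act back on the pathway. Retinoic acid is made by Aldh1a enzymes, removed by Cyp26 enzymes and read by Rar receptors.

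Members had low levels of epithelial markers and carried otic mesenchyme factors, most of them at levels near those of the other kept cells. Pou3f4 stood at 579 CPM in P1 members and 389 in P7 members, against 407 and 302 in the other kept cells, Tbx18 at 443 and 502, against 304 and 301, and Twist1, a mesenchymal transcription factor, at 171 and 173, against 137 and 181. Of the otic mesenchyme list, 1 gene was 2-fold higher and 1 lower of 10 compared with the other kept cells at P1, and 2 higher and 0 lower of 11 at P7. The summed level of the cochlear epithelium list was 15.7 CPM in members at P1, against 185 in the other kept cells, and 29.6 against 274 at P7. The hair cell list summed to 1.59 and 0.80 CPM, and Atoh1, Pou4f3, Gfi1 and Slc26a5 were at 0 in both libraries, where a count of 0 allows up to 0.341 CPM at P1 and 1.2 at P7 (3 counts of all UMIs of the members, which numbered 8792680 and 2497100). The genes that the study used for its ridge clusters include Otor, Emcn and Ccn3, which members carried, Ccn3 by the rule. That set also includes the cartilage-type collagen genes Col9a1 and Col2a1. The study reported Ccn3 and Col2a1 in groups of ridge clusters that overlap only in part. Of 6 cartilage-type collagens, 5 were 2-fold lower in members than in the other kept cells at P1 and 6 at P7, with 0 higher. Otor stood at 7962 CPM in P1 members and 9527 in P7 members, against 5917 and 6596 in the other kept cells. Emcn, the sialomucin endomucin, which is known from endothelium, stood at 1030 CPM in members at P1 and 1465 at P7, against 278 and 365, although the endothelial list summed to 45.8 and 63.3 CPM and the rule itself kept its leading genes low. Of the 12 mesothelial genes in the matrix, only Gpm6a, which is also known from neurons, had enough counts to compare, at 37.5 CPM in P1 members and 68.9 in P7 members, against 37.0 and 47.9 in the other cells. Upk3b and Lrrn4 were at 0 in members.

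**Figure D1:**
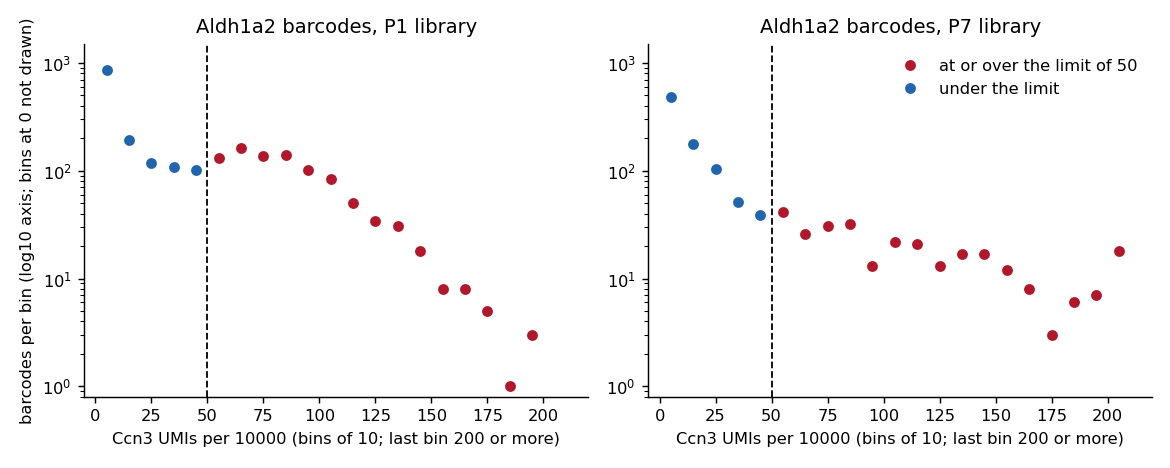
Number of kept cells with at least 1 Aldh1a2 UMI and at most 2 endothelial UMIs (log10 axis), by Ccn3 UMIs per 10000 in bins of 10, for P1 and P7; the dashed line marks the limit of 50, the last point holds all cells at 200 or more, and bins without cells are not drawn. The P1 points have a second peak of 161 cells between 60 and 70, and P1 has 242 cells from 100 to 200 and 0 above, whereas P7 has 126 from 100 to 200 and 18 at 200 or more.

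The limits gave the following values. Ccn3 (ENSRNOG00000008697) per 10000 UMIs ran from 50.1 to 194 in P1 members with a median of 82.3, and from 50.2 to 380 in P7 members with a median of 100.1, whereas the median of the other kept cells was 1.82 and 1.31. The middle range between the quartiles was 65.5 to 102 at P1 and 71.6 to 139 at P7, so that the upper part of the P7 range reached further. Aldh1a2 (ENSRNOG00000055049) had a median of 3 UMIs per member at P1 and 4 at P7, with a highest value of 26 in both. At P1, 131 members had a Ccn3 value from 50 to 60, just inside the limit, and 101 cells that met the other limits lay just outside, from 40 to 50. The same counts at P7 were 41 and 39. Cav1 stood at 676 CPM in the P1 cells just inside and 536 just outside, Notum at 98.0 and 65.1, and Dcn at 108 and 141. At P7 these pairs were 655 and 449.6 for Cav1, 418 and 195 for Notum, and 272 and 324 for Dcn. For these 3 genes the cells just outside the Ccn3 limit lay nearer to those just inside than the remaining kept cells did.

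The Aldh1a2 limit set aside 719 cells at P1 and 437 at P7 that met the Ccn3 and endothelial limits but held no Aldh1a2 UMI. Their median depth was 5646 UMIs at P1 and 6602 at P7, below that of the members. At P1 they carried Cav1 at 593 CPM, Sp5 at 146, Olfm1 at 311 and Notum at 174. At P7 their Cav1 level was 175 CPM, against 823 in members, while Notum stood at 429 CPM, against 416. Emcn was also lower in them, at 454 CPM at P1 and 367 at P7, and the potassium channel gene Kcnk2 stood at 2.98 and 3.90 CPM, against 33.0 and 154 in members.

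Members made up 7.14% of kept cells at P1 (interval 6.70 to 7.60%) and 2.28% at P7 (2.03 to 2.56%), a 3.13-fold lower share at P7. On the log2 scale the share at P7 over that at P1 was -1.65 (-1.84 to -1.46, from a normal approximation). It was -0.73 with a Ccn3 limit of 100, which left 242 and 144 cells. Cells with Aldh1a2 and few endothelial UMIs but with Ccn3 under 50, called Ccn3-low Aldh1a2 cells from here on, numbered 1374 at P1 (10.8%) and 858 at P7 (6.82%), with median depths of 7588.5 and 8385 UMIs. They serve as the closer comparison, and they are also among the other kept cells, which are all those that were not members. How many cells of each kind the dissociation released at each stage was not measured.

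Genes higher in members than in all other kept cells, at the 2-fold limit, were 93 of 7297 at P1 (1.27%) and 140 of 7608 at P7 (1.84%), and genes lower were 396 (5.43%) and 373 (4.9%). The rule fixed part of this contrast. Of the 25 genes with the largest ratios in each library, 17 were in both lists, or 68% of each. They were Aldh1a2, Cav1, Cav2, Ccdc80, Ccn3, Cfap161, Gzmm, Itga8, Nkd1, Nkd2, Notum, Olfm1, Postn, Scg3, Sp5, Tnc and Tnfaip6. All 25 genes of the P1 list were 2-fold higher at P7 as well, where the lowest log2 ratio was 1.35, and 24 of the 25 genes of the P7 list were so at P1, the exception being Gpr182 at 0.81. Against Ccn3-low Aldh1a2 cells, 52 of 7095 genes were higher in members at P1 (0.733%) and 40 of 7536 at P7 (0.531%), and 162 (2.28%) and 138 (1.83%) were lower.

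Some genes of the Wnt pathway's own brakes were among the highest ratios in members. Notum (ENSRNOG00000036680), a secreted esterase that strips Wnt ligands of their lipid, stood at 126 CPM (118 to 133) in members, 20.9 in Ccn3-low Aldh1a2 cells and 21.4 in the other cells at P1. At P7 it stood at 416 CPM (391 to 442), 52.8 and 53.1 in the same order. The cells that met the Ccn3 limit but held no Aldh1a2 UMI, which are among the other cells, had it at 174 CPM (162 to 186) at P1 and 429 (407 to 453) at P7, so the level was not particular to the members. Nkd1, which binds Dishevelled and dampens the signal, was at 175 CPM in P1 members and 218 in P7 members, and its log2 ratio to Ccn3-low Aldh1a2 cells was 2.13 and 2.35. Its relative Nkd2 was at 288 and 346 CPM, with ratios of 1.79 and 1.61. In the Ccn3-high cells without an Aldh1a2 UMI, Nkd1 was at 212 CPM at P1 and 167 at P7, and Nkd2 at 298 and 243. Sp5, a zinc finger transcription factor and Wnt target, was at 214 CPM in P1 members and 99.7 in P7 members, with ratios of 1.96 and 1.69. Axin2, a scaffold of the β-catenin destruction complex, was at 133 and 151 CPM with smaller ratios of 0.72 and 0.79, and Lef1 at 187 and 205 CPM with ratios of 1.01 and 0.97.

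Membrane and secreted inhibitors differed in direction. Bambi, a decoy receptor for TGFβ family ligands, stood at 69.1 CPM in P1 members and 426 in P7 members, with log2 ratios to Ccn3-low Aldh1a2 cells of 1.15 and 1.57. Apcdd1, a membrane inhibitor of Wnt, had ratios of 1.02 and 1.08. Wif1, which binds Wnt ligands outside the cell, was at 65.4 CPM in P1 members, 18.1 in Ccn3-low Aldh1a2 cells and 45.6 in the other cells, and at 90.5, 22.2 and 63.5 at P7. Sfrp1, another secreted Wnt-binding protein, went the other way, at 39.0 CPM in P1 members against 112 and 252, and at 23.2 in P7 members against 79.3 and 165. Dkk1 was at 0 in every group of both libraries, and Tcf7 and Rnf43 stayed under 10 CPM in members. Of the list of Wnt targets and antagonists, 13 genes could be compared with Ccn3-low Aldh1a2 cells at P1, of which 8 were higher and 1 lower (median log2 ratio 1.02). At P7 it was 7 higher and 4 lower of 16 (median 0.88), while the medians over all genes compared were 0.00479 and -0.0165. Against the other kept cells, 6 genes of the list were higher and 3 lower of 14 at P1, and 8 higher and 5 lower of 16 at P7.

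**Figure D2:**
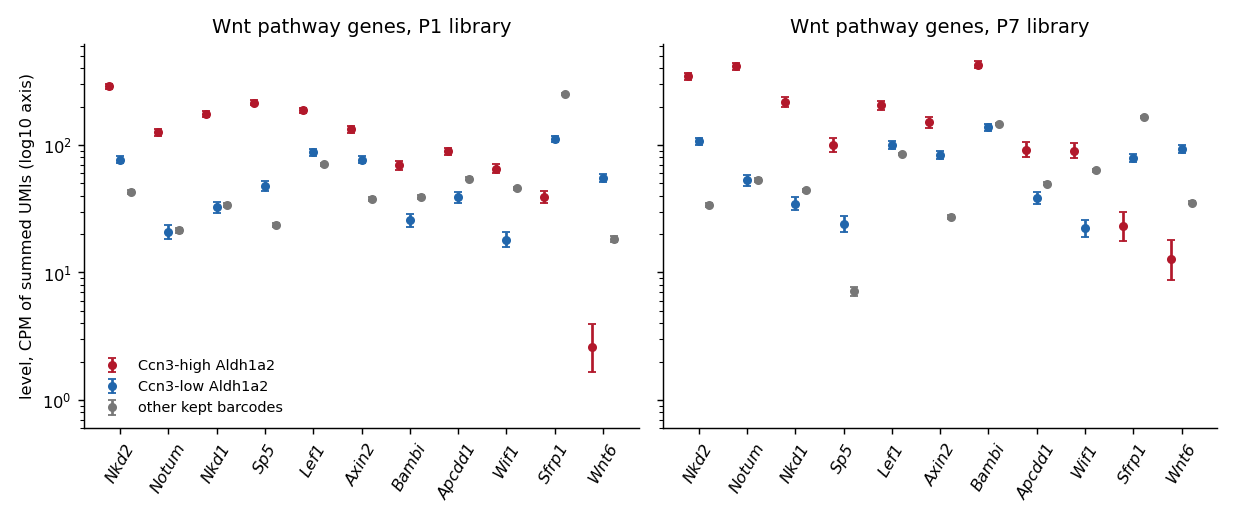
Levels of 11 selected Wnt pathway genes in CPM (log10 axis) in members, Ccn3-low Aldh1a2 cells and other kept cells at P1 and P7, with exact 95% Poisson intervals for counting error as bars. Not all genes of the Wnt lists are drawn. Members lie above both other groups for Nkd2, Notum, Nkd1, Sp5, Lef1, Axin2, Bambi, Apcdd1 and Wif1, and below them for Sfrp1 and Wnt6.

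Most members held UMIs of more than 1 of these genes. Whether the genes occurred together more often than their levels alone would give was not tested. With every cell thinned to 2000 UMIs, 61.3% of P1 members (58.0 to 64.5%) and 68.2% of P7 members (62.4 to 73.6%) held UMIs of at least 2 of 10 Wnt target and feedback genes (Sp5, Axin2, Lef1, Tcf7, Nkd1, Nkd2, Notum, Rnf43, Apcdd1 and Bambi). The share was 16.1% and 24.5% in Ccn3-low Aldh1a2 cells and 12.3% and 14.2% in the other cells. In cells with macrophage markers, which should lack these genes and show what free RNA gives, it was 2.29% and 3.33%. Thinning left out 1 P1 member and 7 P7 members. Without thinning the shares were 96.8% and 96.5% in members, 61.3% and 72.4% in Ccn3-low Aldh1a2 cells, 38.0% and 43.3% in the other cells and 10.4% and 18.3% in macrophage-marker cells. Members were the highest group in both ways of counting.

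On the ligand and receptor side, few genes stood apart. Wnt6, a ligand, was at 2.62 CPM (1.66 to 3.93) in P1 members and 12.8 (8.77 to 18.1) in P7 members, against 55.1 and 93.1 in Ccn3-low Aldh1a2 cells. Fzd1, a Frizzled receptor, was at 124 and 169 CPM in members, against 49.1 and 90.8. Wnt5a was at 32.1 CPM in P1 members and 96.9 in P7 members, against 55.3 and 143. Of the 32 Wnt ligands and receptors listed, 9 could be compared at P1, with 1 higher and 1 lower, and 11 at P7, with 0 higher and 1 lower.

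Promoter sequence was read for the Wnt list because 8 of its genes were higher together at P1. The letters CTTTGAT, the core that Tcf and Lef factors are known to bind, were searched on both strands (as ATCAAAG on the other) in the 250 bases before each gene's start, taken from the RefSeq promoters of rat assembly GRCr8. They occurred in 1054 of 33469 promoters (3.15%), and in 3 of the 14 promoters found for the Wnt targets and antagonists (21.4%), those of Sp5, Axin2 and Nkd1. No match was found for 22 Wnt ligand and receptor genes, 20 retinoic acid genes, 20 basement membrane genes or 8 caveolar genes, nor for Nkd2, Lef1, Bambi, Apcdd1, Cav1 or Olfm1. Notum and Ccn3 had no entry. The 3 windows are chr3:75682427-75682676 on the plus strand for Sp5, chr10:94398535-94398784 on the plus strand for Axin2 and chr19:34722847-34723096 on the minus strand for Nkd1, with the match, in capitals, beginning 104, 132 and 141 bases before the start. They are shown 5′ to 3′ because they are the upstream sequences of the list that held the letters.
Sp5: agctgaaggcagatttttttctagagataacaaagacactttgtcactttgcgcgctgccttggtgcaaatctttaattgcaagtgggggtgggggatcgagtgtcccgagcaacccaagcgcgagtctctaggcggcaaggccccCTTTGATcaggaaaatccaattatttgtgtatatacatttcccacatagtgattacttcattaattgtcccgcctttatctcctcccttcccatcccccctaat
Axin2: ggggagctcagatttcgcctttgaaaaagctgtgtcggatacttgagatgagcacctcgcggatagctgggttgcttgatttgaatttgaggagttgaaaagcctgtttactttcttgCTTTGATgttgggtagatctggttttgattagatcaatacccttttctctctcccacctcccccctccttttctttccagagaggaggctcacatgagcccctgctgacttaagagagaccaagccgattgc
Nkd1: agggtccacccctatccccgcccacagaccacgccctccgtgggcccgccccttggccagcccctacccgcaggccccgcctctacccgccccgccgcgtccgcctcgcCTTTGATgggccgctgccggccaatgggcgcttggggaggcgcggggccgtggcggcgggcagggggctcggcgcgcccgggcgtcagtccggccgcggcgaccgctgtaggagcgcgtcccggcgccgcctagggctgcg
A match in these windows is a description of the letters and was not tied to binding. The list was made of Wnt targets and antagonists, so its share of matches cannot speak to expression in these cells. Of the leading genes of P1 or P7, 27 had a promoter, and the same 3 genes matched (11.1%).

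Against Ccn3-low Aldh1a2 cells, the caveolin genes were higher in members and the cavins, which also coat caveolae, were within the 2-fold limit. Cav1 (ENSRNOG00000056836), the main caveolar coat protein, stood at 873 CPM in P1 members, 233 in Ccn3-low Aldh1a2 cells and 97.1 in the other cells, and at 823, 213 and 51.6 at P7. Cav2, its partner, stood at 73.4 CPM in P1 members and 121 in P7 members, with log2 ratios to Ccn3-low Aldh1a2 cells of 1.29 and 1.41. Cavin1 was at 86.2 against 78.5 CPM at P1 and 109 against 111 at P7. Cavin2 was at 213 against 351 CPM at P1 and 244 against 279 at P7, and Cavin3 at 57.8 against 94.5 and 104 against 151. Of 7 caveolar genes compared with Ccn3-low Aldh1a2 cells in each library, 2 were higher and 0 lower. Against all other cells 3 of 7 were higher in each library and 1 lower at P1 and 0 at P7. Cavin2 was one of those higher against the other cells, where it stood at 83.6 CPM at P1 and 43.2 at P7, and Cavin3 was the one lower at P1, against 129 CPM.

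Matrix genes split between adhesive glycoproteins and the collagens and small proteoglycans. Postn, a matricellular protein of growing connective tissue, was at 1421 CPM in P1 members against 424 in Ccn3-low Aldh1a2 cells, and at 1692 against 582 at P7. Fn1 (fibronectin) was at 776 against 282 CPM and 1237 against 414, and Tnc (tenascin C) at 161 against 71.2 and 291 against 116. Dcn (decorin), which binds collagen fibrils, was at 50.8 CPM (46.2 to 55.8) in P1 members against 399, and at 187 (171 to 205) in P7 members against 866. Lum and Ogn, of the same proteoglycan class, were also 2-fold lower in both libraries, as were the matricellular genes Sparcl1 and Spp1. Of 9 interstitial collagen genes, 7 were lower than in Ccn3-low Aldh1a2 cells at P1 (median log2 ratio -1.27) and 5 at P7 (-1.08), with 0 higher. Col3a1 stood at 107 CPM in P1 members against 750, and at 469 in P7 members against 1338. Of the basement membrane genes, 5 of 13 were lower at P1 (median -0.77) and 4 of 15 at P7 (-0.51), again with 0 higher. Cartilage-type collagens gave 3 of 6 lower at P1 and 2 of 6 at P7. Over the matricellular and proteoglycan list, 3 of 21 were higher in each library, and 8 and 7 were lower, so the list as a whole did not lean to the higher side.

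The IGF axis and the connexins also differed from Ccn3-low Aldh1a2 cells. Igfbp2, an IGF-binding protein, was at 1238 CPM in P1 members against 2344, and at 2282 in P7 members against 3979. Igf1 was at 50.5 against 162 CPM at P1 and 115 against 170 at P7. Of the IGF genes, 4 of 8 were lower at P1 and 2 of 9 at P7, and none were higher at the 2-fold limit. Gja4, which encodes the vascular connexin 37, was at 32.5 CPM in P1 members against 5.66, and at 111 in P7 members against 25.1. Gjb2 and Gjb6, the cochlear gap junction genes whose loss is known to cause deafness, went the other way, at 3.75 and 1.36 CPM in P1 members against 53.0 and 23.5. At P7 they stood at 25.2 and 14.4 CPM in members against 119 and 75.4.

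Among retinoic acid genes, Aldh1a2 did not separate members from Ccn3-low Aldh1a2 cells, which the rule also required to hold it, at 473 against 514 CPM at P1 and 643 against 569 at P7. Rarres1, a gene known for its response to retinoids, was at 33.3 CPM in P1 members against 3.85, and at 161 in P7 members against 22.9, and it was the only retinoic acid gene that was 2-fold higher among 11 compared at P1 and 13 at P7, with 0 lower. Crabp2, a retinoic acid carrier, was at 82.2 against 141 CPM at P1 and 213 against 272 at P7. Rarb stood at 87.2 and 107 CPM in members. The Cyp26 enzymes were near 0, with Cyp26c1 at 0 in both libraries.

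Genes of the tympanic border list, which covers cells under the basilar membrane, were within the 2-fold limit against Ccn3-low Aldh1a2 cells, apart from 2 genes at P1. The list includes Aldh1a2, which the rule required in both groups, so that gene says nothing of their likeness. Emcn, also of the list, differed along Ccn3. It stood at 552 CPM in P1 cells with Ccn3 under 10 per 10000 and 1150 in those at 100 to 200. At P7 these levels were 962 and 1414 CPM. Otor (otoraplin, a secreted cochlear protein) stood at 7962 CPM in P1 members and 9527 in P7 members, against 7174 and 9211. Slc1a3, a glutamate transporter, stood at 795 and 590 CPM, against 742 and 515. Calb2 (calretinin) and Kcnk2 (a potassium channel) were the 2 genes of this list that were lower in members at P1, at 31.3 against 139 and 33.0 against 179 CPM. At P7 they were at 120 against 238 and 154 against 248 CPM, and 0 of 6 genes passed the 2-fold limit in either direction. Among otic mesenchyme transcription factors, 0 of 10 at P1 and 0 of 11 at P7 were higher, and 1 was lower in each. Among transcription factors outside that list, Irx3, a homeobox gene, was at 502 against 194 CPM at P1 and 331 against 194 at P7. Dach1, a transcriptional regulator, was at 102 against 31 CPM at P1 and 46.5 against 9.17 at P7. Within the CCN family, the rule itself made Ccn3 higher in members, and no other gene was higher. Of the CCN genes compared, 1 of 3 was lower at P1 and 2 of 4 at P7. Ccn1 stood at 7.28 CPM in P1 members against 27.0 and Ccn2 at 43.4 against 86.0.

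Genes outside the pathway lists filled the rest of the leading set. Olfm1, a secreted olfactomedin glycoprotein, stood at 425 CPM in P1 members against 98.1 in Ccn3-low Aldh1a2 cells, and at 184 in P7 members against 40.4. Scg3, a secretory granule protein, stood at 568 against 200 and 235 against 118 CPM. Ccdc80, a secreted matrix protein, stood at 677 against 300 and 351 against 215 CPM. Tnfaip6, a hyaluronan-binding protein, and Itga8, an integrin subunit, were close to the Ccn3-low Aldh1a2 cells, with Tnfaip6 at 420 against 269 and 1148 against 969 CPM and Itga8 at 208 against 190 and 340 against 305. Of the Notch, FGF, axon guidance and thyroid hormone lists, no gene passed the 2-fold limit against Ccn3-low Aldh1a2 cells in either library. Proliferation genes gave 0 of 8 and 0 of 9 past the limit. After thinning to 1000 UMIs, 4.50% of P1 members (3.25 to 6.05%) and 3.51% of P7 members (1.70 to 6.36%) held at least 2 proliferation UMIs. The shares were near these in Ccn3-low Aldh1a2 cells, at 3.86% and 3.98%, and were 6.39% and 6.72% in the other cells. Unthinned, they were 11.3% and 12.9% in members, 9.97% and 12.8% in Ccn3-low Aldh1a2 cells and 12.5% and 13.4% in the other cells.

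Levels differed step by step with Ccn3 among all cells with Aldh1a2 and few endothelial UMIs. At P1, Notum was at 5.76 CPM in cells with Ccn3 under 10 per 10000, then 24.5, 60.6, 110 and 175 CPM in cells at 10 to 25, 25 to 50, 50 to 100 and 100 to 200. At P7 the same bins gave 24.7, 53.3, 145, 360 and 506 CPM, and 294 (204 to 411) in the 18 cells at 200 or more. Cav1 ran from 148 CPM in the lowest bin to 1011 in the highest at P1, and from 137 to 1003 between the bins under 10 and at 100 to 200 at P7. Dcn ran the other way, from 512 CPM to 16.2 at P1 and from 1168 to 96.9 over the same bins at P7. Wnt6 was lower along the same order, from 73.9 CPM to 0.48 at P1 and from 110 to 6.92 at P7, and was at 0 in the 18 cells at 200 or more. Aldh1a2 had another order, at 501, 587, 484, 479 and 452 CPM at P1, and at 425, 720, 780.1, 633, 667 and 562 CPM at P7, where the lowest Ccn3 bin was below every higher one. Calb2 was lower with higher Ccn3 at P1, from 156 to 18.1 CPM, whereas at P7 it was highest, at 313 CPM, in the bin from 10 to 25. The bins hold the same cells that the limit divided, and all genes of a bin share the library and the depth of those cells.

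**Figure D3:**
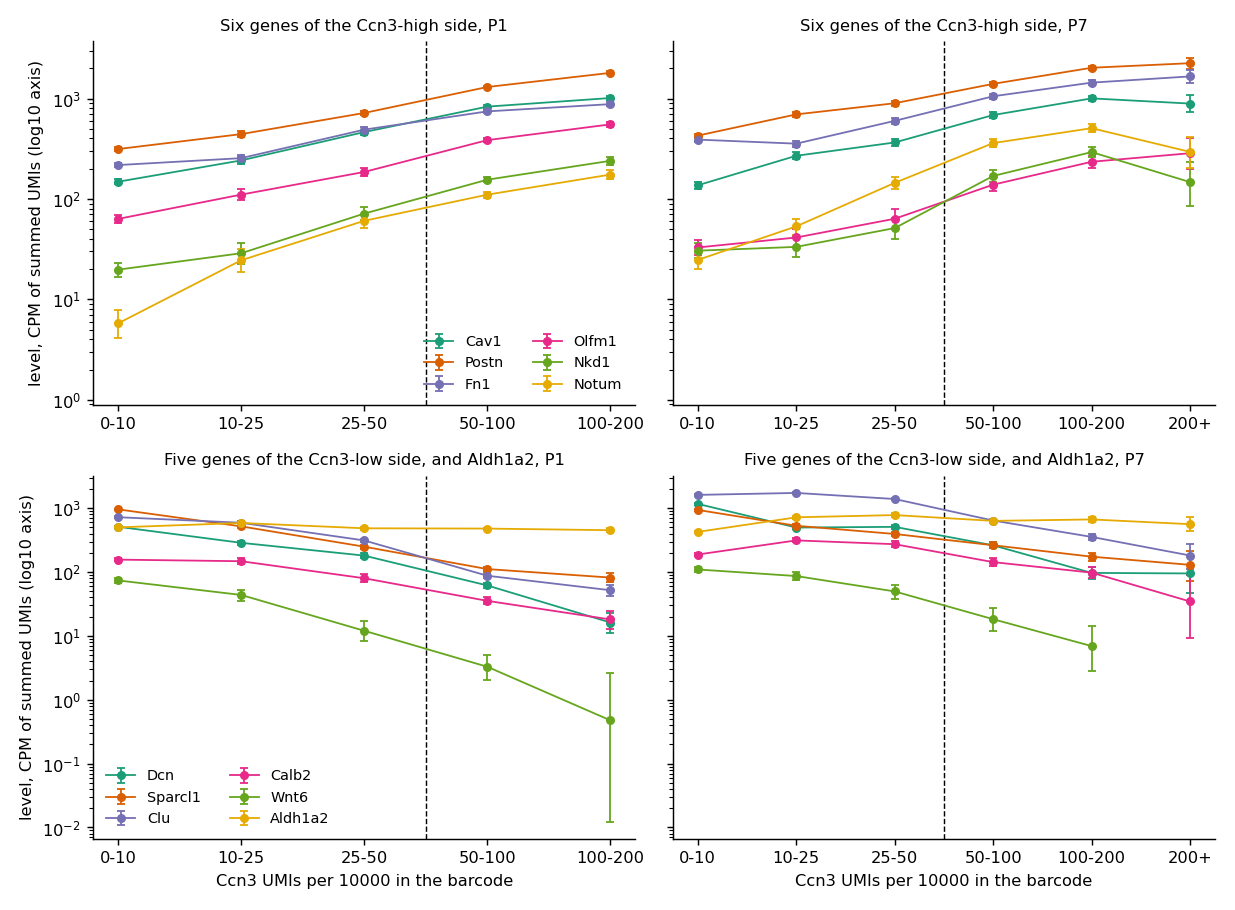
Levels in CPM (log10 axis) by bins of Ccn3 UMIs per 10000 among cells with Aldh1a2 and few endothelial UMIs, at P1 and P7, for 6 genes with higher levels at higher Ccn3 (Cav1, Postn, Fn1, Olfm1, Nkd1 and Notum) and for Dcn, Sparcl1, Clu, Calb2, Wnt6 and Aldh1a2; the Wnt6 value of 0 is not drawn. Notum runs from 5.76 to 175 at P1 while Dcn runs from 512 to 16.2 and Aldh1a2 stays between 452 and 587.

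Cell by cell, Cav1 and Notum set members apart from Ccn3-low Aldh1a2 cells, whereas some other genes did not. After thinning to 1000 UMIs, 52.2% of P1 members (48.9 to 55.5%) and 50.5% of P7 members (44.6 to 56.5%) held a Cav1 UMI, against 18.0% and 16.2% of Ccn3-low Aldh1a2 cells and 1.5% and 2.33% of macrophage-marker cells. Notum UMIs were found in 12.6% of P1 members (10.5 to 14.9%) and 26.7% of P7 members (21.6 to 32.2%), against 1.75% and 3.75%. In macrophage-marker cells it was 0 of 133 at P1, where the exact interval reaches 2.74%, and 1.55% at P7. Without thinning, 95.1% and 87.5% of members held Cav1 and 53.0% and 62.7% held Notum. After thinning, Axin2 was found in 12.9% of P1 members against 7.50% of Ccn3-low Aldh1a2 cells. At P7 its shares were near each other, at 10.9% (7.51 to 15.1%) and 9.72% (7.82 to 11.9%). Cavin2 was found in 17.1% of P1 members against 27.1%, and in 20.0% of P7 members against 21.9%.

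P7 members were then set beside P1 members. At the 2-fold limit, 265 of 7306 genes were higher at P7 (3.63%) and 123 lower (1.68%), and in the other kept cells the same counts were 248 of 7652 (3.24%) and 155 (2.03%). In Ccn3-low Aldh1a2 cells they were 260 of 7520 (3.46%) and 104 (1.38%). Under median of ratios scaling the members had 220 higher and 175 lower, so the size of the excess of higher genes depends on the scaling. Median log2 ratios over all genes were 0.11 in members, 0.0885 in the other cells and 0.13 in Ccn3-low Aldh1a2 cells.

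Among genes higher at P7, Tnfrsf11b (osteoprotegerin, a decoy receptor that blocks osteoclast formation) was at 14.7 CPM (12.3 to 17.4) in P1 members and 161 (146 to 178) in P7 members, a log2 ratio of 2.80, against 2.57 in Ccn3-low Aldh1a2 cells and 1.64 in the others. Bambi had a ratio of 2.46 in members and 1.67 in the other cells, and Notum 1.65 and 1.01. Rarres1 had 1.98 and 1.26. Ramp1, a receptor accessory protein of the CGRP receptor, was at 32.5 and 219 CPM, a ratio of 2.43, against 0.68 in the other cells. Clu (clusterin, a secreted chaperone) was at 79.0 and 504 CPM, a ratio of 2.53 against 0.97. Bambi and Clu also rose in Ccn3-low Aldh1a2 cells, so the rise was not particular to members. In those with Ccn3 under 10 per 10000, Bambi stood at 21.8 CPM at P1 and 130 at P7, and Clu at 722 and 1616. Kcnk2 and Calb2 had ratios of 1.93 and 1.65 in members but -0.10 and -0.01 in the other cells. In Ccn3-low Aldh1a2 cells both were above 0 but under the 2-fold limit, which 0 of 6 tympanic border genes passed there. Col3a1 had 2.03 against 1.02 and Dcn 1.70 against 1.56. These are sizes side by side, and their differences were not tested.

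Lower at P7 were several of the genes that mark the members. Sp5 had a log2 ratio of -1.03 in members and -0.97 in the other cells, Olfm1 -1.16 and -1.20, and Dach1 -0.99 and -0.79. Scg3 had -1.24 and -0.66, and Rgs16, a regulator of G protein signalling, -1.70 and -0.84. Egr1, an immediate-early gene, had -1.81 in members and -2.22 in the others. Cav1 was nearly level in members at -0.08 and had -0.80 in the other cells, and Ccn3 had 0.31 and -0.04. The stress and immediate-early list gave 1 gene higher and 4 lower of 13 in members (median -0.41), and its median in the other cells was -0.74. Whether handling of the tissue had a part in these values was not tested. The Wnt targets and antagonists had 3 higher and 1 lower of 13 in members, with a median log2 ratio of 0.25. In Ccn3-low Aldh1a2 cells 5 were higher and 0 lower of 16 (median 0.31), and in the other cells 4 and 0 of 16 (median 0.32).

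**Figure D4:**
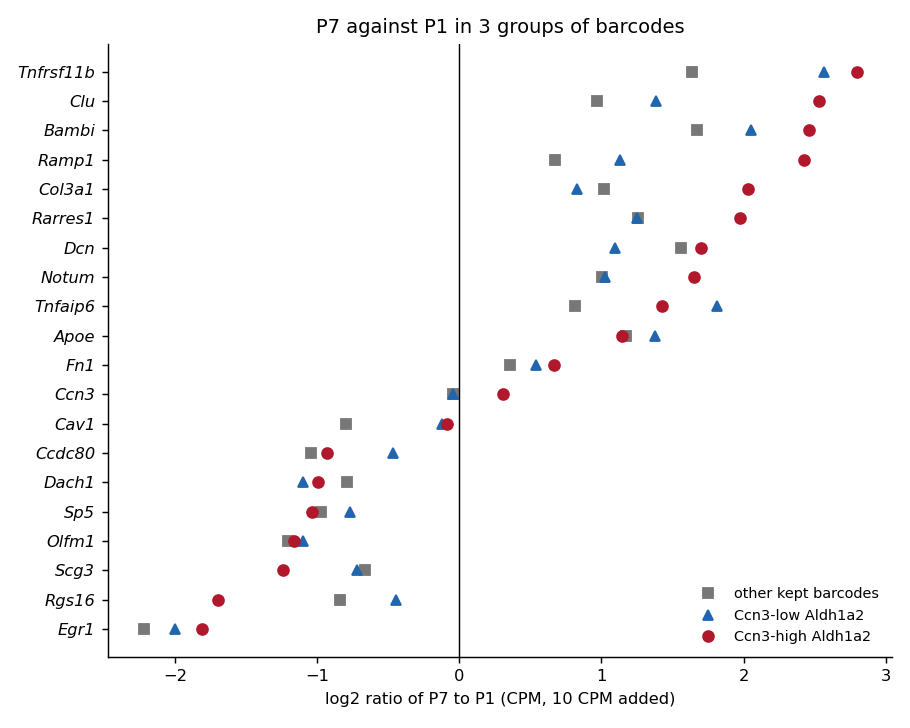
Log2 ratio of P7 to P1 (10 CPM added to both levels) for 20 genes in members, Ccn3-low Aldh1a2 cells and other kept cells, with a line at 0. Tnfrsf11b lies highest in members at 2.80, and Sp5 and Olfm1 lie below 0 in all groups.

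The largest P7 to P1 ratios in members rested on very few cells. Globin transcripts (Hba-a2, which stands for 2 gene identifiers and is uncertain, and Hbb) were summed with LOC103694857 and LOC689064, which the files do not name further and which were added because they were high in the same cells. They came to 15124 UMIs in the 287 P7 members, of which 2 cells held 13988 (92.5%), while the next cell held 42. The glial genes Mbp and Pmp22 summed to 1741 UMIs, of which 1 cell held 1153 (66.2%), and S100a6 to 309, of which 1 cell held 285 (92.2%). Members with at least 50 globin and glial UMIs per 10000 were 1 at P1 and 5 at P7, and Scrublet marked 0 of them. Without them, globin stood at 91.2 CPM at P1 and 460.4 at P7, Hbb alone at 2.85 and 20.5, and Mbp, a myelin protein, at 7.74 and 38.5. Notum stood at 125 and 423 CPM, Bambi at 69.2 and 433 and Clu at 79.1 and 515 without them. When all cells past this globin and glial limit were left out, genes higher in members than in the other cells at P7 numbered 124 instead of 140, and 9 of the 235 ratios of named genes past 2-fold fell under it. Over whole marker lists, macrophage genes summed to 7.73 CPM in P1 members and 32.4 in P7 members, against 324 and 209 in the other cells. Fibroblast markers summed to 241 and 850 CPM, against 1752 and 3623. The part of other cells' RNA in the values above was not tested.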

How the data were processed

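Dissociated cochlear basal membrane of Sprague-Dawley rats at P1, P7 and P14 was profiled as 1 droplet (10x 3′) library per stage, with 40 animals pooled. The authors processed the reads with bcl2fastq and Cell Ranger (3.1.0 per the file headers) against rn6, and used Seurat 3.1.1 downstream; the annotation and the cell calling are not given in the sources used here. The deposited matrices hold raw UMI counts for 32623 genes per barcode, with no normalization, and were used as they are. Kept barcodes, called cells, held over 500 but under 5000 genes, with under 25% of UMIs on the mitochondrial genes, which left 12779 of 14068 at P1, 12581 of 14501 at P7 and 5281 of 6358 at P14. The whole matrices held 114285848, 101264868 and 12616390 UMIs.

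Members were found by the Ccn3, Aldh1a2 and endothelial limits given with the results. UMIs were summed per group and scaled to CPM. No model was fitted and no p-value was computed, because each stage has 1 library. Named genes were the rule genes, the 25 largest ratios of members to other cells per library, the 15 largest and smallest ratios of the other contrasts, the 10 highest and 10 most variable genes per library, and members of 27 gene lists and 15 cell type lists. Members and lists were chosen with earlier results of these data known. Scrublet, run through scanpy 1.11.5, marked doublets, which were kept in the values reported. In simulated data, all 200 changed genes had the right sign in each of the 3 comparisons, with 7117, 7573 and 7109 genes. The simulation drew Poisson sums with planted changes larger than 2-fold and without variation among cells. It therefore checked the calculation only and cannot show how far single cells sway a ratio. Alternatives changed each limit, the depth, the pseudocount, the gene filter, the level of a group and the scaling. Python 3.11.15, numpy 2.4.6, scipy 1.17.1, pandas 2.3.3 and matplotlib 3.10.9 were used. A few genes are not reported here.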

Additional observations from a re-analysis of the deposited data

Results flagged for a closer look

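The log2 ratio of P7 to P1 was above 0 in members and below 0 in the other kept cells for Mgp, Jun and Col1a1. These opposite signs were not tested, and of the ratios below only that of Mgp in members passed the 2-fold limit. Mgp (matrix Gla protein, an inhibitor of calcification) had a log2 ratio of P7 to P1 of 1.60 in members, from 56.1 to 191 CPM, against -0.69 in the other cells. At P7, 1 member held 29.8% of its UMIs and 2 members held 46.8%, and its ratio in members was -0.029 when 2 or more Aldh1a2 UMIs were required. Jun, an immediate-early transcription factor, had 0.76 in members, from 198 to 342 CPM, against -0.97 in the other cells. Without the members that held globin and glial RNA its levels were 198 and 347 CPM. Col1a1 had 0.52 in members, from 8.42 to 16.4 CPM, against -0.76 in the other cells, and rested on 74 UMIs at P1 and 41 at P7.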

How the results depend on the processing

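No paired analysis was possible because each stage has 1 library and no test was made. Of 470 ratios (94 named genes in 5 contrasts) under 16 alternatives, 235 passed the 2-fold limit in the values reported, and over the 13 alternatives that can take a ratio under the limit 2854 of 3055 such values still passed it with the same sign, 199 fell under it and 2 changed sign. The other 3, both gene filters and 1 CPM added, cannot do so. The 2 that changed sign were Mgp, at -0.029 for P7 over P1 in members with 2 or more Aldh1a2 UMIs, and LOC689064, at 0.0227 in members over Ccn3-low Aldh1a2 cells at P1 after thinning to 2000 UMIs. The number of members at P1 and P7 was 242 and 144 with a Ccn3 limit of 100, 1632 and 724 without the Aldh1a2 limit, and 535 and 185 after thinning to 2000 UMIs. The share at P7 over that at P1, as a log2 ratio, was -0.73, -1.15 and -1.45 under these, -1.44 with under 10% mitochondrial UMIs, and also -1.44 without cells at 50 or more globin and glial UMIs per 10000, an alternative chosen after seeing the data. Genes higher and lower at P7 in members numbered 492 and 237 after thinning, 647 and 305 with 1 CPM added, 45 and 22 with 50 CPM added, and 107 and 59 with a minimum mean of 50 CPM. Genes higher in members than in Ccn3-low Aldh1a2 cells at P1 numbered 21 with a Ccn3 limit of 100, 110 without the Aldh1a2 limit, 103 and 17 with 1 and 50 CPM added, and 28 with the minimum of 50 CPM. At P7 they numbered 131 without the Aldh1a2 limit, 78 after thinning, 72 and 14 with 1 and 50 CPM added, and 25 with that minimum. Genes higher than in the other cells numbered 151, 36 and 59 at P1 and 218, 51 and 79 at P7 under the same additions and minimum. Fewer genes are compared under the higher minimum, and a larger addition shrinks every ratio; the cause of the other shifts was not tested.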

Other observations

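Members varied most, beyond counting error, in genes that the rule did not use. Crym, which encodes the thyroid hormone-binding protein μ-crystallin, ran from 0 to 164 UMIs per 10000 in P1 members with a median of 5.45, and from 0 to 152 in P7 members with a median of 2.51. Members were divided at this median, a division chosen after the values were seen, so the levels are given with no test. Cartilage-type collagens were higher in the upper Crym group. Col9a1 was at 273 CPM in the 457 upper and 66.9 in the 456 lower members at P1, and at 761 and 149.5 in the 144 upper and 143 lower members at P7. Col2a1 was at 141 and 57.5 CPM at P1 and 224 and 33.2 at P7, and Scx, a tendon transcription factor, at 35.1 and 8.11 and at 112 and 18.2. Wnt inhibitors went with them, with Notum at 154 and 92.4 CPM at P1 and 660.0 and 178 at P7, and Wif1 at 86.6 and 40.8 and at 158 and 24.5. Tnfaip6 went the other way, at 287 and 575 CPM at P1 and 726 and 1559.6 at P7, as did Vim (vimentin), at 4916 and 6853 and at 3939 and 7159. Cav1 and Axin2 differed less, with Cav1 at 840.2 and 912 CPM at P1 and 877 and 771 at P7, and Axin2 at 143 and 121 and at 159 and 144. The median depths of the upper and lower groups were 8113 and 7553 UMIs at P1 and 7627.5 and 8383 at P7.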
